A study of Mus musculus with 2 samples.

Results

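Vitamin C (ascorbate) was followed in the adrenal gland through 9 genes of its transport, synthesis and use, chosen by symbol from the 55536 genes of the deposited gene table. All 9 were found: the transporter genes Slc23a1, Slc23a2 and Slc23a3, the synthesis genes Akr1a1, Rgn and Gulo, and Cyb561, Cyb561d2 and Pam, which belong to its regeneration and use. Total RNA-seq was made from adrenal glands of 10-day-old B6CASTF1/J females, a cross of the mouse strains C57BL/6J and CAST/EiJ, with no treatment named in the labels. There is 1 group of 2 libraries, numbered as biological replicates 1 and 2, each from 300 ng of RNA with ERCC spike-in RNA added. The labels give each tissue sample its own female but repeat 1 female and 1 cDNA number in both library descriptions. They therefore do not settle whether the 2 libraries come from separate animals, and the spread between the libraries may not be that between animals.

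The adrenal gland holds some of the highest ascorbate concentrations of the body. Mice make the vitamin in the liver from glucose by way of glucuronate, gulonate and gulonolactone, and other organs take it up from blood through sodium-coupled transporters of the Slc23 family. Inside chromaffin granules of the medulla ascorbate gives electrons to copper enzymes, dopamine beta-hydroxylase for noradrenaline and peptidylglycine alpha-amidating monooxygenase for amidated peptides, and cytochrome b561 carries electrons into the granule to restore it.

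The libraries held 35287787 and 33068243 expected counts on annotated genes in replicates 1 and 2, and 14179 genes reached a TPM (a transcript level scaled for length and depth, with a fixed sum per library) of at least 1 in both, which is called detected here. A count of 0 allows up to 3 counts, or 0.0850 and 0.0907 CPM (counts scaled to the library total). Intervals and that limit cover counting error only. All 8 markers of the steroid cortex were detected, with Hsd3b1 at 1440.2, Cyp21a1 at 831 and Star at 698 TPM on average, and so were all 8 chromaffin markers, with Chga at 331, Chgb at 280 and Pnmt at 175 TPM. None of either list differed 2-fold between the libraries in the test described below. However, 7 of the 8 cortex and 5 of the 8 chromaffin markers passed its adjusted p, beside 26.6% of all genes. Star was 1.52-fold, Scarb1 1.48-fold and Pnmt 1.46-fold higher in replicate 2. Markers of other organs differed between the libraries. All 8 hepatocyte markers were higher in replicate 1, all 10 nephron markers were higher in replicate 2, and 5 of 6 skeletal muscle markers were higher in replicate 1 with Myh4 higher in replicate 2. Fat markers were abundant in both libraries, with Fabp4 at 1728, Ucp1 at 1140.0 and Cox8b at 1041 TPM on average. None of the 6 differed 2-fold, though all 6 passed the adjusted p, beside 26.6% of all genes.

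The 9 genes covered a wide range of levels. In TPM, Akr1a1 stood highest at 230.3 ± 24.2 (SD, n = 2), followed by Pam at 69.1 ± 4.52, Cyb561 at 43.2 ± 4.54, Slc23a2 at 13.0 ± 1.34, Rgn at 8.38 ± 7.16, Gulo at 6.26 ± 4.79, Cyb561d2 at 5.04 ± 0.0919, Slc23a1 at 1.56 ± 1.16 and Slc23a3 at 0.215 ± 0.0919. Akr1a1, Pam and Cyb561 were the 3 highest in that order in both libraries, with gaps larger than the spread. Rgn lay above Slc23a2 in replicate 1 (13.4 and 12.1 TPM) and below it in replicate 2 (3.31 and 14.0 TPM), so their order is not separated from the spread. Nor were Rgn, Gulo and Cyb561d2 separated by their means, because Rgn and Gulo lay above Cyb561d2 in replicate 1 and below it in replicate 2. Of the 9 genes 7 were detected in both libraries. The missing pair were Slc23a1, above 1 TPM in replicate 2 only, and Slc23a3, below it in both.

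**Figure D1:**
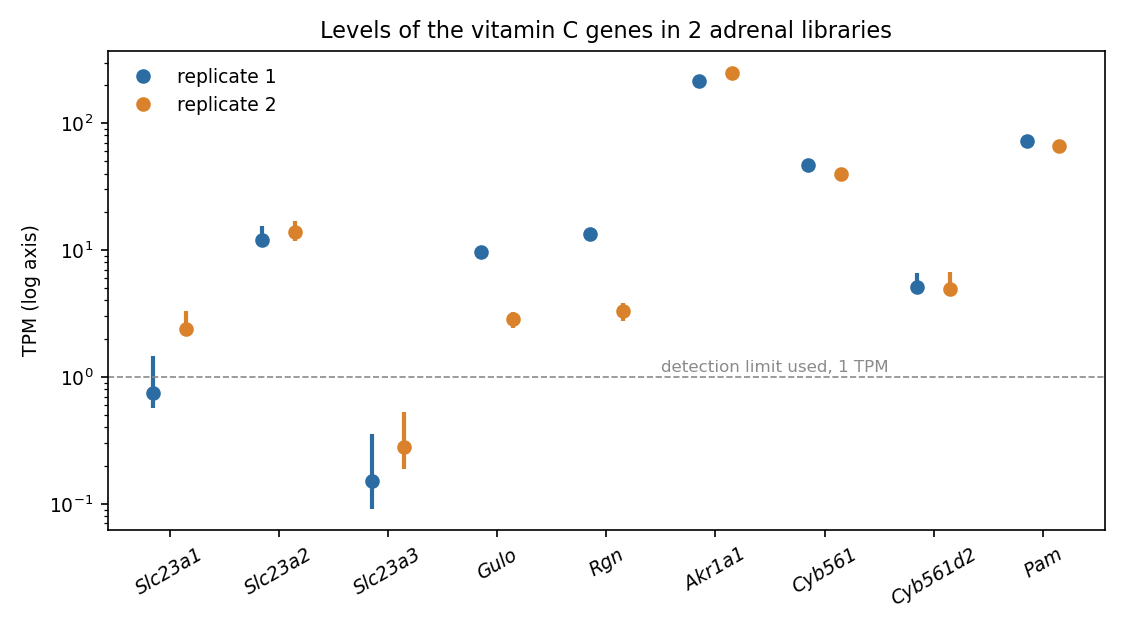
TPM of the 9 genes in replicate 1 (blue) and replicate 2 (orange) on a log axis, with points for the deposited TPM and vertical lines for the deposited credibility intervals. Gulo and Rgn sit higher in replicate 1 (9.64 and 13.4 TPM) than in replicate 2 (2.87 and 3.31 TPM), Slc23a1 sits higher in replicate 2 (2.38 against 0.74 TPM), and the pairs of the other 6 differ by less than 2-fold.

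Which of these levels were shared by the libraries was asked with an exact two-sided binomial test of the counts of replicate 2 against replicate 1, run over the 18883 genes whose counts summed to 20 or more. A gene was called at a Benjamini-Hochberg adjusted p of at most 0.05 and at least 2-fold. This compares 2 libraries and has no replicate check, and an exact sign-flip test over 2 libraries cannot go below p = 0.5. Over all genes 6.80% were called, 4.05% higher in replicate 1 and 2.75% higher in replicate 2. Of the 9 vitamin C genes, 2 were called higher in replicate 1 (Gulo and Rgn), 1 was called higher in replicate 2 (Slc23a1), and 6 were not called. Without the 2-fold limit 26.6% of all genes passed, and of the 9 genes 6 did, the 3 above with Akr1a1, Cyb561 and Pam. The median log2 ratio of replicate 2 over replicate 1 was 0.0088 over the 9 genes and -0.0029 over all genes tested.

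Slc23a2, on chromosome 2 from 132052496 to 132145108 in mm10, encodes the sodium-coupled ascorbate transporter SVCT2, known as the main uptake route of the adrenal gland. It had 1910 counts and 12.1 TPM in replicate 1, and 1714 counts and 14.0 TPM in replicate 2. It was the most abundant of the 3 transporter genes in both libraries, with 59.0% of detected protein-coding genes below its mean. The scaled counts gave a ratio of 1.01 (95% interval 0.942 to 1.07; adjusted p = 0.94 by the exact binomial test), so no difference between the libraries was detectable at this depth beyond that interval. The direction of so small a ratio changed with the scaling, from 0.0088 on the log2 scale to -0.062 with total counts.

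The TPM of Slc23a2 depended on how reads were divided among its 7 transcripts. Slc23a2-201, the protein-coding model of 6364 nt, stood at 8.59 and 8.35 TPM in replicates 1 and 2. Models shorter than 1 kb took 18.4% of the gene's TPM in replicate 1 and 36.7% in replicate 2, and the gene's TPM was higher in replicate 2 while the ratio of its scaled counts was 1.01. A second quantification deposited for each library gave the gene 24.1 and 18.1 TPM, the opposite order, and Slc23a2-201 12.6 and 11.9 TPM. The short model Slc23a2-203, of 379 nt, had 7.76 and 4.42 TPM there against 1.05 and 2.33 TPM in the gene table's own quantification. The long model held nearly the same level in both libraries within each quantification.

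Slc23a1, on chromosome 18 from 35614604 to 35627244, encodes SVCT1, the transporter of absorbing epithelia such as kidney tubule and gut. It had 53 counts and 0.74 TPM in replicate 1 (credibility interval 0.568 to 1.46 TPM) and 213 counts and 2.38 TPM in replicate 2 (2.24 to 3.30 TPM). The intervals did not overlap. Scaled counts were 4.51-fold higher in replicate 2 (95% interval 3.32 to 6.21; adjusted p = 1.02e-26 by the exact binomial test). The nephron markers moved the same way. All 10 were called higher in replicate 2, their levels summed to 1.25 TPM in replicate 1 and to 257.0 TPM in replicate 2, and their median log2 ratio was 8.45. The 3 highest were Slc34a1 at 0.14 and 80.8 TPM, Kap at 0.20 and 70.2 TPM, and Slc5a2 at 0.09 and 25.5 TPM, while Slc22a6 was at 0 in replicate 1 and 3.94 TPM in replicate 2. Their part in the Slc23a1 difference was not tested. Fewer cells of a type and less RNA per cell cannot be told apart in whole tissue.

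The transport gene of epithelia was thus read mostly from 1 library, and the ratio between the family members moved with it. Slc23a2 exceeded Slc23a1 16.3-fold in TPM in replicate 1 and 5.87-fold in replicate 2. Slc23a1-201, the protein-coding model of 3026 nt, held 67.5% and 94.2% of the gene's TPM in replicates 1 and 2, and 56.6% and 57.7% in the second quantification, where Slc23a1-204, annotated as a target of nonsense-mediated decay, took 43.4% and 33.8%. The span of Slc23a1 overlaps 2584 bases of Paip2 on the opposite strand. Paip2 had 2978 and 2778 counts, and the labels and headers do not state whether counting used the strand, so low counts of Slc23a1 are uncertain.

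Slc23a3, on chromosome 1 from 75125541 to 75133890, is the third family member and is not established as an ascorbate transporter. It had 10 counts and 0.15 TPM in replicate 1 and 17 counts and 0.28 TPM in replicate 2. The ratio of 1.91 had a 95% interval from 0.824 to 4.66 (adjusted p = 0.28, exact binomial test). At this depth neither a difference nor equality could be shown. Slc23a2 exceeded Slc23a3 by a log2 TPM ratio of 5.99 ± 0.49 (SD, n = 2).

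Akr1a1, on chromosome 4 from 116636510 to 116651680, encodes the aldehyde reductase that turns glucuronate into gulonate and also reduces many other aldehydes. It had 8913 counts and 213 TPM in replicate 1 (credibility interval 203 to 216 TPM) and 9151 counts and 247 TPM in replicate 2 (235 to 250.2 TPM). Among nuclear protein-coding genes it ranked 219 by mean TPM. The scaled counts were 1.15-fold higher in replicate 2 (95% interval 1.12 to 1.19; adjusted p = 7.07e-20 by the exact binomial test), which is beyond counting error and under the 2-fold limit. The main model Akr1a1-201, of 1420 nt, had 192 and 211 TPM. A processed transcript of 412 nt, Akr1a1-202, had 18.3 and 34.9 TPM, and 153 and 199 TPM in the second quantification, where the whole gene reached 432 and 512 TPM.

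Rgn, on chromosome X from 20549787 to 20562089, encodes regucalcin, the lactonase that closes gulonate into gulonolactone and is abundant in liver. It had 682 counts and 13.4 TPM in replicate 1 and 156 counts and 3.31 TPM in replicate 2. Scaled counts were 3.90-fold higher in replicate 1 (95% interval 3.27 to 4.67; adjusted p = 6.54e-65 by the exact binomial test). The credibility intervals, 12.2 to 14.2 and 2.77 to 3.79 TPM, did not overlap.

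Gulo, on chromosome 14 from 65986786 to 66009207, encodes gulonolactone oxidase, the last enzyme of the pathway and the one that humans lack. It had 702 counts and 9.64 TPM in replicate 1 and 194 counts and 2.87 TPM in replicate 2. Scaled counts were 3.23-fold higher in replicate 1 (95% interval 2.75 to 3.80; adjusted p = 1.28e-54 by the exact binomial test). The credibility intervals, 8.77 to 10.2 and 2.43 to 3.22 TPM, did not overlap. Both Rgn and Gulo have 1 annotated transcript, so division among transcripts does not enter, and the second quantification gave 19.9 and 4.98 TPM for Rgn and 13.9 and 4.15 TPM for Gulo.

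The hepatocyte markers moved with these terminal synthesis genes. All 8 were called higher in replicate 1, their summed level was 5638 TPM there and 1092 TPM in replicate 2, their log2 ratios ran from -2.46 to -2.02, and none was at 0 in either library. The 3 highest were Alb at 2509 and 502 TPM, Trf at 1002 and 199.8 TPM, and Ahsg at 996 and 173 TPM. The log2 ratios of Rgn and Gulo were -1.96 and -1.69, smaller in size than every marker of that list. The 95% interval of Gulo's fold, 2.75 to 3.80, lay below those of all 8 markers, of which Apob had the lowest at 3.94 to 4.19. That of Rgn, 3.27 to 4.67, overlapped those of Apob, Fgb (4.51 to 5.20) and Ttr (4.59 to 5.03). It lay below those of Alb, Trf, Serpina1a, Apoa1 and Ahsg, of which Alb had the lowest at 4.75 to 4.86. Rgn was thus separated from part of the list only, by intervals that cover counting error alone. Per unit of Alb, Gulo had 0.00384 TPM in replicate 1 and 0.00572 TPM in replicate 2, and Rgn had 0.00536 and 0.00660 TPM. The part of the hepatocyte markers in the difference of Rgn and Gulo was not tested.

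The steps of the pathway were therefore measured at very unequal levels. Akr1a1 exceeded Gulo 22.1-fold in TPM in replicate 1 and 86.2-fold in replicate 2. Rgn and Gulo stayed close to each other, with Rgn over Gulo at a log2 TPM ratio of 0.34 ± 0.19 (SD, n = 2). Akr1a1 lay outside the pattern of the later enzymes by direction as well, since its log2 ratio was 0.20.

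**Figure D2:**
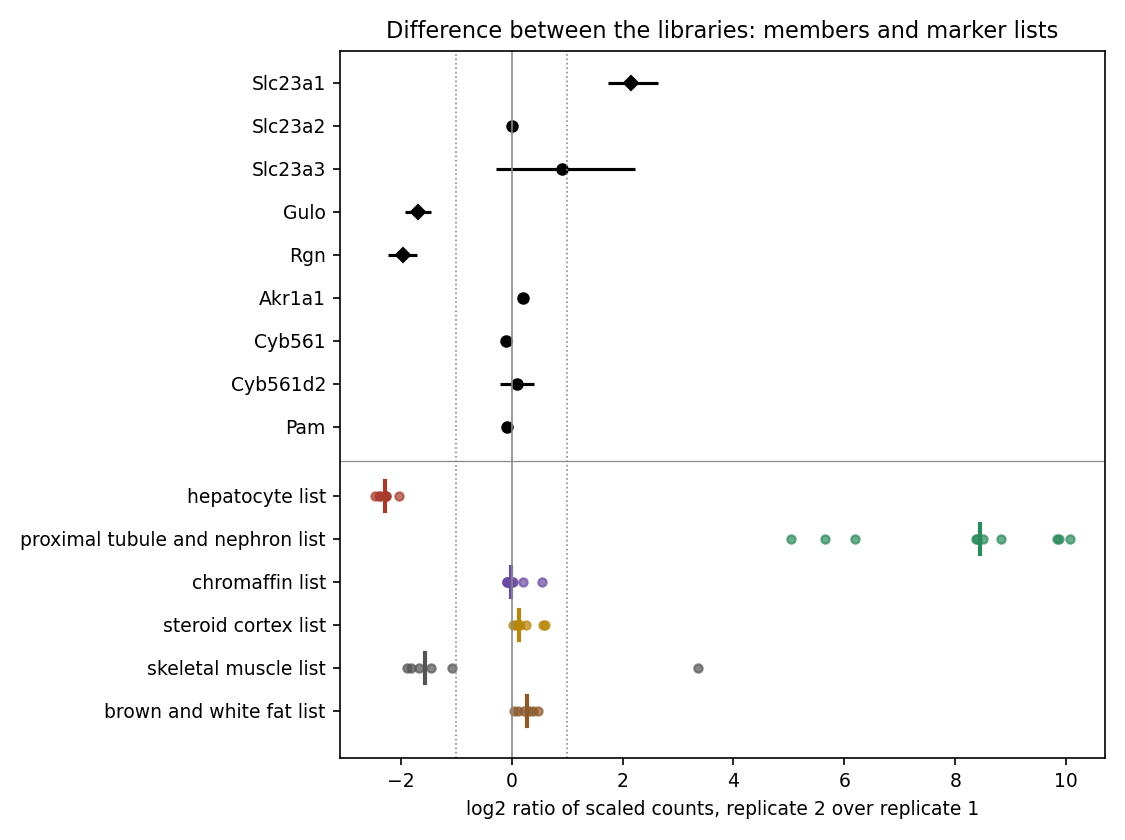
Log2 ratio of scaled counts, replicate 2 over replicate 1, for the 9 genes (upper rows, black, with exact 95% intervals; diamonds were called) and for the genes of 6 marker lists (lower rows, 1 point per gene, with a bar at the median). Dotted lines mark the 2-fold limit. Gulo (-1.69) and Rgn (-1.96) lie on the side of the hepatocyte list (median -2.28), and Slc23a1 (2.16) on the side of the nephron list (median 8.45). Pam and Cyb561 lie near 0, where the median of all genes tested also lies (-0.0029). The chromaffin list has a median of -0.017 and runs from -0.089 to 0.54.

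Cyb561, on chromosome 11 from 105933702 to 105953336, encodes the cytochrome b561 of the chromaffin granule membrane. It had 3374 counts and 46.4 TPM in replicate 1 (credibility interval 44.0 to 47.9 TPM) and 2790 counts and 39.9 TPM in replicate 2 (37.8 to 41.5 TPM), and 89.1% of detected protein-coding genes lay below its mean. Scaled counts were 1.08-fold higher in replicate 1 (95% interval 1.03 to 1.13; adjusted p = 0.014 by the exact binomial test), far from the 2-fold limit. Dbh, the dopamine beta-hydroxylase gene that uses ascorbate inside the same granule, stood at 112 and 96.0 TPM. Cyb561 over Dbh came to 0.414 in replicate 1 and 0.416 in replicate 2, a log2 TPM ratio of -1.27 ± 0.0052 (SD, n = 2). Cyb561-201, the main model of 2741 nt, held 74.2% and 77.6% of the gene's TPM. Cyb561-204, of 967 nt, held 16.2% and 16.3%. Cyb561-203, a processed transcript of 505 nt, held 2.70% and 1.17%, and 13.4% and 12.1% in the second quantification. An unclassified gene model on the other strand, Gm9910, overlaps 1550 bases of Cyb561 and had 49 and 33 counts.

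Cyb561d2, on chromosome 9 from 107539007 to 107542193, encodes another member of the cytochrome b561 family. It had 193 counts and 5.10 TPM in replicate 1 and 184 counts and 4.97 TPM in replicate 2. The ratio was 1.07 (95% interval 0.869 to 1.31; adjusted p = 0.74 by the exact binomial test). Cyb561 exceeded it by a log2 TPM ratio of 3.10 ± 0.13 (SD, n = 2), larger than the spread between the libraries. Its 2 main models share a coding sequence of 666 bases and start 328 bases apart. Cyb561d2-205, which starts upstream, held 79.0% and 70.4% of the gene's TPM, and Cyb561d2-201 held 14.7% and 24.0%. The second quantification gave 60.9% and 62.0% to the former and 20.4% and 24.1% to the latter, so the upstream start led in each library and quantification.

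Pam, on chromosome 1 from 97795114 to 98095646, encodes the enzyme that amidates the ends of peptide hormones, in a first step that needs copper and ascorbate and a second lyase step. It had 6854 counts and 72.3 TPM in replicate 1 (credibility interval 68.5 to 75.4 TPM) and 5796 counts and 65.9 TPM in replicate 2 (62.4 to 69.2 TPM). Scaled counts were 1.05-fold higher in replicate 1 (95% interval 1.02 to 1.09; adjusted p = 0.013 by the exact binomial test), beyond counting error and far below the 2-fold limit. Pam over Chga, the chromogranin A gene of the granule, came to a log2 TPM ratio of -2.26 ± 0.0089 (SD, n = 2), and Pam over Dbh to -0.59 ± 0.063. The ratios to Chga and Dbh thus differed little between the libraries. Of the 8 chromaffin markers 4 had a log2 ratio below 0, as Pam did (-0.077). The other 4 lay above 0, with Pnmt the highest at 0.54, followed by Slc18a1 at 0.21. Of the 5 annotated genes inside its span, Gm3531, a processed pseudogene, had 552 and 453 counts (42.0 and 37.2 TPM), and the others had at most 57 counts.

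Pam has 15 annotated transcripts, of which 3 took at least 10% of its TPM in any library or quantification. Pam-210, of 3630 nt, was the highest, with 33.0 TPM in replicate 1 (credibility interval 30.5 to 34.4 TPM) and 32.2 TPM in replicate 2 (29.4 to 33.3 TPM). Pam-201, of 4095 nt, had 13.1 and 12.3 TPM, and Pam-212, a short model of 657 nt, had 12.4 and 12.8 TPM. Pam-210 and Pam-201 differ in a coding exon of 318 bases, at chr1:97864203-97864520 on the minus strand (mm10), which is exon 15 of Pam-201 and absent from Pam-210. Its length is a multiple of 3, 106 codons, and it accounts for the whole difference in coding length between 2937 and 2619 bases. This is the exon between the amidating and the lyase parts of the protein, known for deciding whether the parts can be cut from each other. The junctions around this exon are shown here because they mark where the models with and without it part. They have 30 bases on each side and the optional exon in capitals. The sequences were read from the GENCODE M21 transcript sequences in mRNA sense. Reads over these junctions were not counted, and the models also differ in their first exon and at their ends.
Pam-210, exon left out: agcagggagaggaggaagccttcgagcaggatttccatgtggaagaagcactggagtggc
Pam-201, into the exon: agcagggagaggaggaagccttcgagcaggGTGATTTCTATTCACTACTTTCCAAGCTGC
Pam-201, out of the exon: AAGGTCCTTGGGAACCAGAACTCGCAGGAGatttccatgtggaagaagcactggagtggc

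Transcripts without the exon were the more abundant of the long models. Over Pam-201, Pam-202 and Pam-210 together, those with the exon made up 35.2% of TPM in replicate 1 and 31.5% in replicate 2, a mean of 33.4 ± 2.63% (SD, n = 2). The second quantification put the share higher, at 49.1% and 48.3%, a mean of 48.7 ± 0.565%. The gap between the quantifications was larger than the gap between the libraries, so the share of the exon is known only within that range, and Pam-210 also lacks the first exon of the others. A further difference among the long models lies at the start of exon 24 (chr1:97825837-97826040 in Pam-201), where Pam-202 leaves out 3 bases that Pam-201 and Pam-210 keep. The sequences across it, with the extra bases in capitals, are shown because they are all that separates the coding parts of Pam-201 and Pam-202, of 2937 and 2934 bases.
Pam-201, longer acceptor: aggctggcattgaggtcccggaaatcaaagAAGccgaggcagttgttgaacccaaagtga
Pam-202, shorter acceptor: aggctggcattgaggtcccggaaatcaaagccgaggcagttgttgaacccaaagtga

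Of the TPM of that pair, the longer form took 73.0% in replicate 1 and 82.8% in replicate 2, and 70.7% and 87.3% in the second quantification. The longer form was the major one of the pair in each library and quantification. Pam-210, the highest Pam model, also has the longer acceptor and is not part of the pair. Over all the long models the share of the shorter form is therefore lower. Pam-202 itself had 4.86 and 2.55 TPM.

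**Figure D3:**
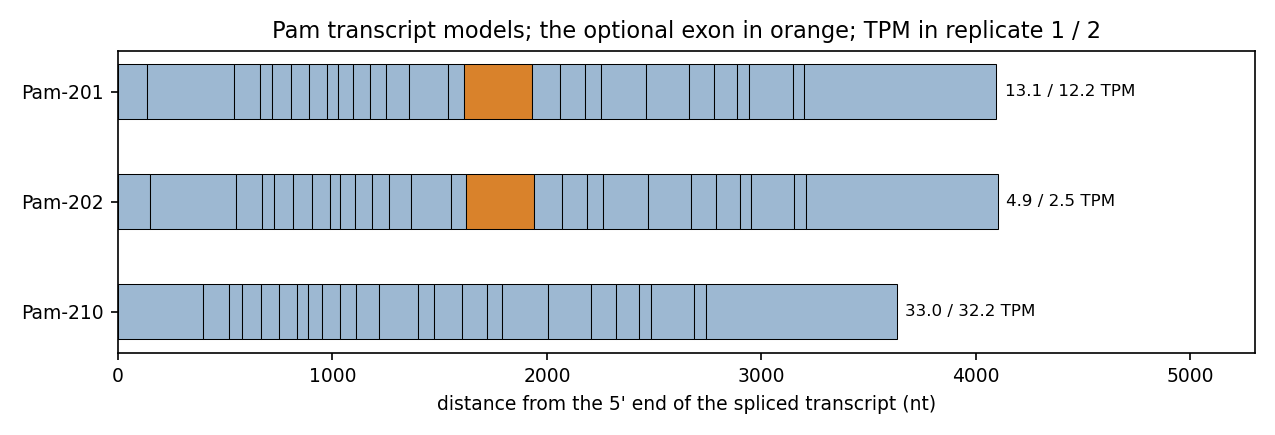
Exons of 3 Pam transcripts drawn to scale along the spliced RNA (x axis, nt from the 5′ end), with the optional exon of 318 nt in orange and TPM in replicates 1 and 2 at the right. Pam-210, without the exon, had 33.0 and 32.2 TPM, more than Pam-201 (13.1 and 12.3 TPM) and Pam-202 (4.86 and 2.55 TPM) together.

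**Figure D4:**
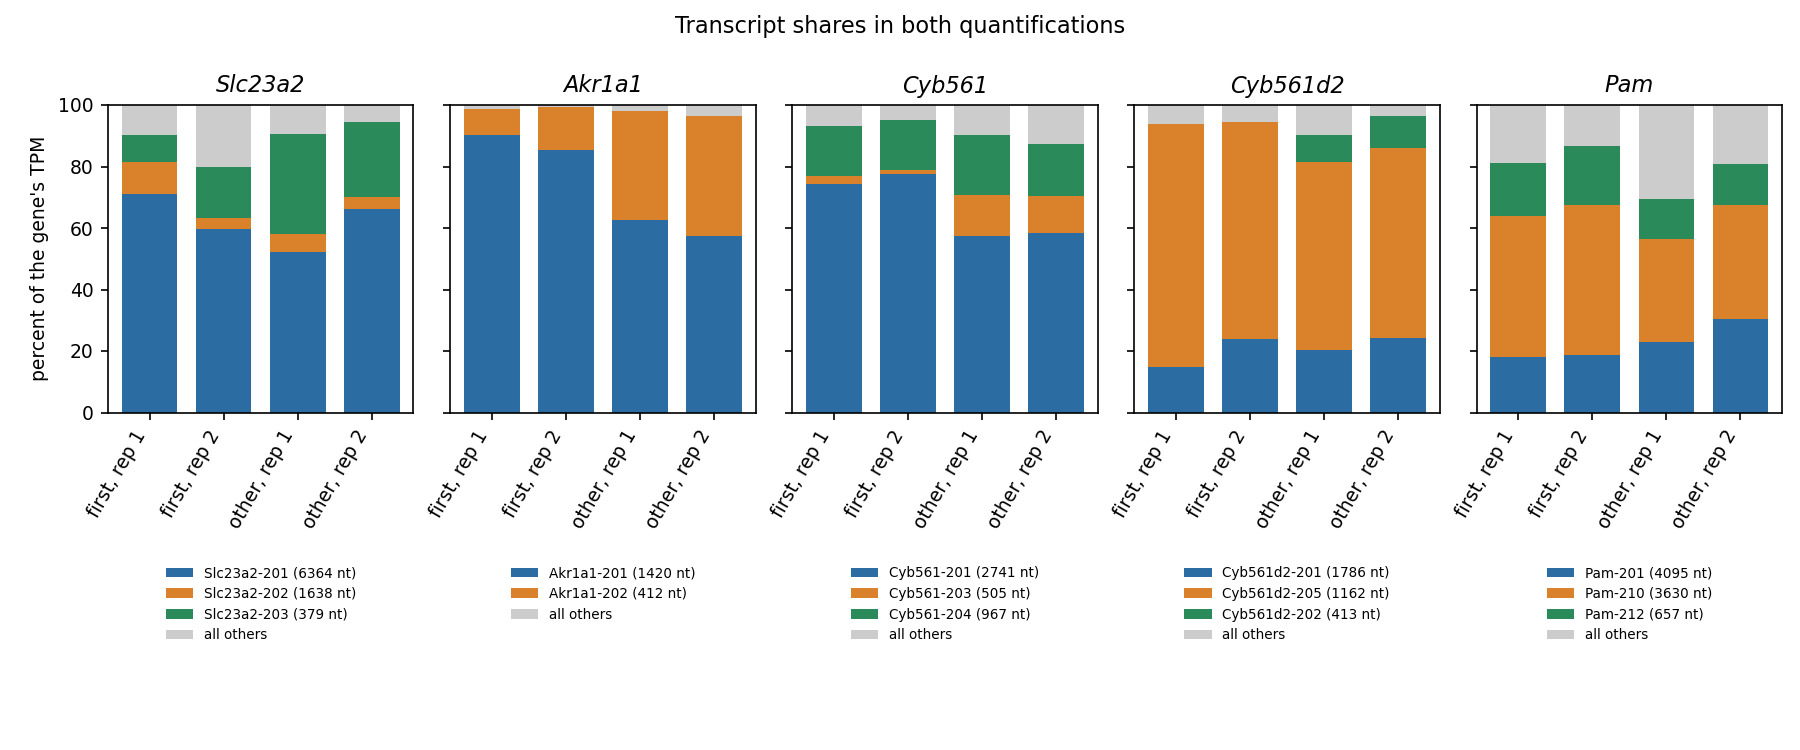
Share of each gene's TPM (y axis, percent) in its transcripts for 5 genes, with bars for replicates 1 and 2 in the gene table's quantification (first) and in the second one (other). Transcripts under 10% in every bar are pooled in grey. The leading transcript is the same in all 4 bars of each gene, while short models such as Akr1a1-202 (8.60% and 14.1% against 35.4% and 39.0%) and Slc23a2-203 (8.66% and 16.6% against 32.2% and 24.5%) take more in the second quantification.

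Other genes that feed or spend vitamin C were then placed beside these 9. Of 6 genes of glucuronate supply, 5 were detected and 1 was called, beside 6.80% of all genes tested. Pgm1, a phosphoglucomutase, stood at 50.1 ± 2.71 TPM (SD, n = 2) and Ugp2, which makes UDP-glucose, at 32.7 ± 2.79 TPM. The called gene was Miox, the kidney oxygenase that makes glucuronate from inositol, at 12 counts and 0.58 TPM in replicate 1 and 1636 counts and 54.8 TPM in replicate 2. Its scaled counts differed 153-fold (95% interval 87.3 to 296), higher in replicate 2, and went the way of the nephron markers, whose summed level was 1.25 and 257.0 TPM; their part was not tested.

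All 12 genes for uptake and reduction of dehydroascorbate, the oxidised form, were detected. None was called, a share to be read beside the 6.80% of all genes, and log2 ratios ran from -0.16 to 0.43 with a median of 0.026. Without the 2-fold limit 4 of the 12 passed the adjusted p, beside 26.6% of all genes. They were Slc2a1, a glucose transporter that also carries dehydroascorbate, 1.35-fold higher in replicate 2, Gsto1, 1.20-fold higher in replicate 2, Slc2a4, 1.12-fold higher in replicate 1, and P4hb, 1.07-fold higher in replicate 1. The highest were P4hb, protein disulfide isomerase, at 131 ± 12.8 TPM (SD, n = 2), Cyb5r3, a cytochrome b5 reductase, at 58.7 ± 1.08 TPM and Gsto1, a glutathione transferase that reduces dehydroascorbate, at 56.9 ± 6.84 TPM. Of the other 3 cytochrome b561 genes, Cyb561a3 had 7.14 and 5.21 TPM, Cyb561d1 had 2.27 and 2.34 TPM and Cybrd1 had 0.60 and 0.71 TPM, and none was called, though Cyb561a3, 1.22-fold higher in replicate 1, passed the adjusted p. Each lay below Cyb561 in both libraries.

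Among 16 iron or copper enzymes that ascorbate keeps active, 14 were detected, 2 were called higher in replicate 1 (4.05% of all genes) and none was called higher in replicate 2 (2.75% of all genes), with a median log2 ratio of 0.018. Without the 2-fold limit 8 of the 16 passed the adjusted p, beside 26.6% of all genes. Dbh led at 104 ± 11.3 TPM (SD, n = 2). Plod2, a lysyl hydroxylase of collagen, stood at 34.1 ± 3.62 TPM and Egln2, a prolyl hydroxylase of the oxygen response, at 28.9 ± 1.20 TPM. The called genes were Hpd, an enzyme of tyrosine breakdown in liver, at 21.7 and 5.25 TPM, 3.88-fold higher in replicate 1 (95% interval 3.34 to 4.52), and Bbox1, of carnitine synthesis, at 1.56 and 0.72 TPM, 3.02-fold higher (95% interval 2.10 to 4.43). The hepatocyte markers, with a summed level of 5638 and 1092 TPM, went the same way, and their part was not tested.

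**Figure D5:**
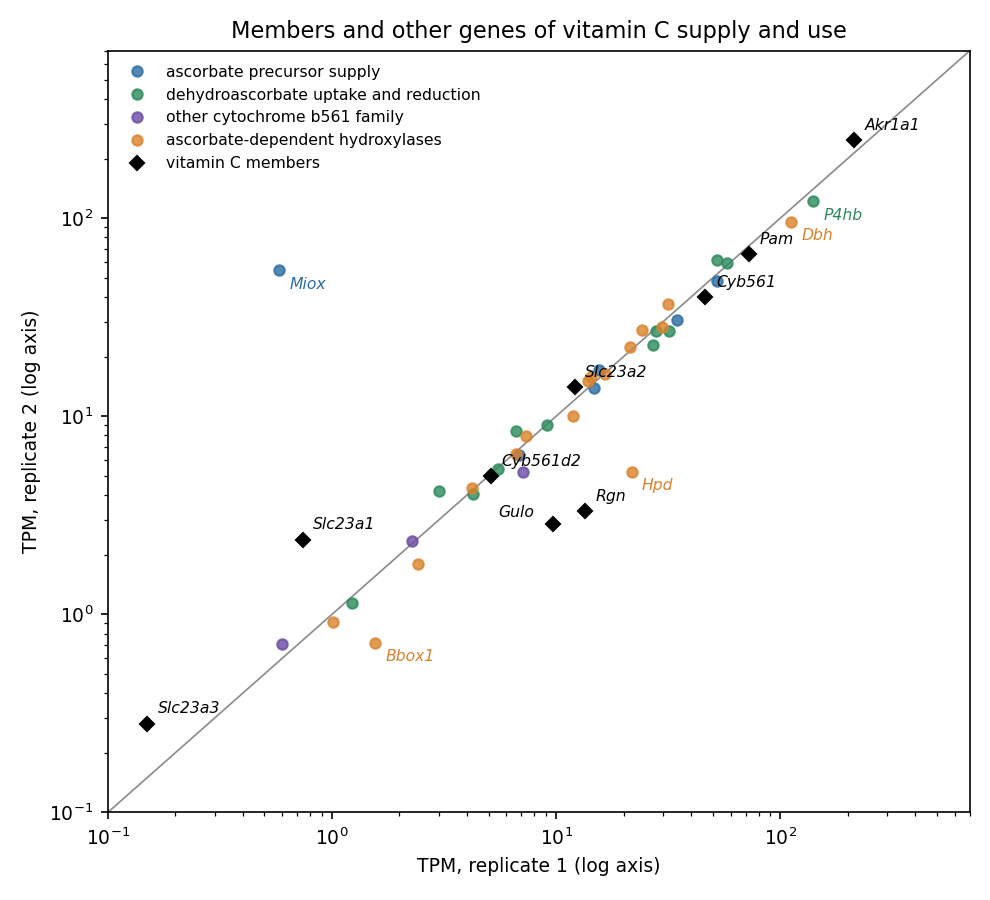
TPM in replicate 1 (x) and replicate 2 (y), both on log axes, for the 9 genes (black diamonds) and for 4 lists of other genes of vitamin C supply and use (coloured points); the line marks equal levels. Most points follow the line, Gulo, Rgn, Hpd and Bbox1 lie below it, and Slc23a1 and Miox lie above it.

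The protein-coding genes with the most similar levels over the 2 libraries were found by the distance of log2(TPM + 1). They were Eef2kmt for Slc23a2 (12.1 and 14.0 TPM, distance 0.0040), Hgfac for Rgn (13.6 and 3.28 TPM, 0.021), Cmya5 for Gulo (9.71 and 2.78 TPM, 0.035), Elovl7 for Slc23a1 (0.79 and 2.34 TPM, 0.044), Bsg for Akr1a1 (219 and 246 TPM, 0.038), Set for Pam (72.9 and 65.3 TPM, 0.017), Mif4gd for Cyb561 (46.1 and 40.5 TPM, 0.021), Evc2 for Cyb561d2 and Atp6v1fnb for Slc23a3. With 2 libraries many genes share a position. Within a distance of 0.1 there were 73 genes for Slc23a2 and 182 for Cyb561d2, but 3 each for Slc23a1 and Gulo and 6 for Rgn.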

How the data were processed

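Per the file headers and the readme notes deposited beside them, values were made on mm10 with annotation M21. Tool names, their versions and the use of strand are not stated there. The authors deposited expected counts and TPM per gene and transcript, credibility bounds of TPM (a signal range) and the percent of a gene's TPM per transcript, with the column names of RSEM. A second deposited table holds estimated counts and TPM per transcript, with the column names of kallisto, summed here per gene. TPM covers all features, spike-ins included.

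Expected counts were rounded and scaled with TMM in edgeR 4.0.16 (R 4.3.3) over genes whose counts summed to 20 or more. ERCC rows (96) and 26248 numbered rows, the latter holding 1.96e-05% and 1.80e-05% of counts, stayed out. With 1 group no contrast exists for edgeR's quasi-likelihood test, so the libraries were compared gene by gene, using a two-sided exact binomial test with Benjamini-Hochberg adjustment over all 18883 genes, in Python 3.11.15 with scipy 1.17.1. Log2 ratios used a prior count of 0.5 and folds carry exact 95% Clopper-Pearson intervals. Tested on simulated data on 18869 genes for the comparison between the libraries, the steps recovered 99% of 200 genes changed 3-fold. The simulated counts held counting error only, and the changed genes were taken from those with a summed count of at least 100. That test therefore does not cover the larger spread between the real libraries, nor genes of low count.

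The chi-square of the counts was 57.8 per gene, so the files do not hold 1 library deposited again. The members, gene lists and tests were chosen with earlier results of these data known. Named genes are the members, the 3 highest genes and the called genes of each list, overlapping genes, transcripts at 10% or more of a member's TPM and the nearest gene by level; other markers, Slc2a1, Slc2a4, Pam-202 and the ratios of gene pairs were chosen after their values were seen. A planned comparison of member proteins was not made, and Tmlhe was not analysed here.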

Additional observations from a re-analysis of the deposited data

How the results depend on the processing

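The calls of Slc23a1, Gulo and Rgn kept their direction and their side of the threshold under the 7 alternatives run for each, which were total count scaling, DESeq2 size factors, ERCC scaling, summed count minimums of 1 and 100, the second quantification and a prior count of 2. Their log2 ratios ran from 2.09 to 2.24, -1.76 to -1.64 and -2.03 to -1.90. No other member was called under any of them. Slc23a2 changed sign with total count scaling (-0.062) and in the second quantification (-0.0023), both within counting error. Dropping the 2-fold requirement left 6 of the 9 members past the adjusted p, and 5032 of all genes against 1284, while a summed count minimum of 100 gave 797 calls; fewer genes were tested there. At a minimum of 5 TPM 4 members were detected in both libraries. With 1 library left out 7 to 8 were detected, and no difference can be computed. TPM was 1.44 to 2.05 times higher in the second quantification over the 9 genes, beside a median of 1.52 over 13660 detected genes. Rescaling TPM over nuclear protein-coding genes alone raised the mean level of each of the 9 genes by 2.96 to 3.03 times, for example from 230.3 to 692 for Akr1a1 and from 13.0 to 39.2 for Slc23a2. Counts of 10 to 53 limit what can be said of Slc23a3 in both libraries and of Slc23a1 in replicate 1. No paired analysis was possible because the series holds 1 group.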
